A study of Mus musculus with 8 samples.

Results

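Retinoid receptors, retinoid-handling proteins and retinoic acid responsive genes were followed in mouse blood-forming cells cultured with or without red blood cells (RBCs). The set held 10 of the 24346 genes with a value: the receptors Rara, Rarb, Rarg, Rxra and Rxrb, the enzymes Dhrs3 and Cyp26b1, the transporter Stra6, and the responsive genes Cd38 and Tgm2. They were picked by gene symbol, with the response of these same libraries to RBCs already known. Their responses to RBCs are therefore given as a description without p-values, and any count of calls in that comparison is printed only beside its share over all genes.

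The cells were wild-type primary bone marrow cells of 2 kinds. LSK cells (Lin-, Sca-1+, c-Kit+) are a mixed pool of stem cells and multipotent progenitors, and hematopoietic stem cells (HSCs) were the LSK cells that were also CD48- and CD150+. Each kind was kept for 1 day either in single culture or together with RBCs, and the cells recovered were treated to lyse RBCs, sorted for the white blood cell antigen CD45 and sequenced in bulk. Each of the 4 groups held 2 libraries. No source used here says whether the libraries of a group came from separate cultures or animals, so the p-values below measure only the spread between these libraries.

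Vitamin A reaches cells as retinol, is taken up, and is oxidized through retinal to retinoic acid. Retinoic acid binds the RAR receptors, which sit on DNA as pairs with an RXR receptor and switch between holding corepressors and coactivators, and the enzymes of the CYP26 family then break it down. RXR also pairs with other nuclear receptors. In bone marrow, retinoic acid is known for driving myeloid differentiation, while its signalling through receptors of this family is also known to bear on the dormancy and upkeep of HSCs.

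RAR and RXR pairs read repeats of a short hexamer, and the promoters of the genes were therefore searched on both strands for AGGTCA and for its variants GGGTCA (a changed first base), AGTTCA (a changed inner base) and GGTTCA (both changes), and for direct repeats of any pair of them with 1, 2 or 5 bases between. Promoters of RefSeq (GRCm38.p6, 250 bases before to 50 after each start) were at hand for 9 of the 10 genes, in 20 versions; Tgm2 had no entry. The hexamers occurred in 7 of the 20, against 43.7% of 32851 promoters of this length. Only 1 of the 20 held a direct repeat. This was the repeat with 5 bases between in the Rarb promoter, at chr14:16575513-16575529 on the minus strand, 53 to 37 bases before the start, and 0.0974% of all promoters held such a repeat. This start lies within the span that the annotation gives the Rarb gene. Repeats with 1 base and with 2 bases between stood in 0.222% and 0.268% of all promoters. A match is a description of the letters and not a measured binding site. The Rarb promoter (chr14:16575427-16575726, minus strand) is shown for its repeat, and those of Cd38 (chr5:43868559-43868858, plus strand) and Dhrs3 (chr4:144892577-144892876, plus strand) because both genes stood higher with RBCs; capitals mark the hexamers on either strand. The single hexamer of the Cd38 promoter lay on the minus strand, 8 to 13 bases after the start, and the Dhrs3 stretch held none.
Rarb repeat: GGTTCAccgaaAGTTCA
Rarb: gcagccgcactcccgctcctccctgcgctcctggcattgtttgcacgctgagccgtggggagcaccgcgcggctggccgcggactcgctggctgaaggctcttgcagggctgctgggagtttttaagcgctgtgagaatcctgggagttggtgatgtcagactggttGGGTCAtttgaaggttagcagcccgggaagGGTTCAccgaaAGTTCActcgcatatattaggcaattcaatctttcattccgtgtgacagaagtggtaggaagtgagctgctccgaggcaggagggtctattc
Cd38: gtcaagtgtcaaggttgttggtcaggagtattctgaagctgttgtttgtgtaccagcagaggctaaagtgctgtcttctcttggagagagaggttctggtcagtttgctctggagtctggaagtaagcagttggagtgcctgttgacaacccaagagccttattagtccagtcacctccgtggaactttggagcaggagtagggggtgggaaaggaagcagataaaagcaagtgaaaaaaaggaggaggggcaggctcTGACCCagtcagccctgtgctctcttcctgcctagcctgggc
Dhrs3: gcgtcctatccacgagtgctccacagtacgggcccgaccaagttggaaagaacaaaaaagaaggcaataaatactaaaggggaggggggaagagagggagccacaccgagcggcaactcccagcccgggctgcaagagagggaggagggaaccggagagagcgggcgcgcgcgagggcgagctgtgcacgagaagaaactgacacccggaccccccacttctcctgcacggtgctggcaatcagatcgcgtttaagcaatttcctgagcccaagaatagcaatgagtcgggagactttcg

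Levels are FPKM, which count fragments relative to the length of the transcript and to library size. The FPKM of a library summed to between 680942 and 752107, and the relative depth of the libraries lay between 0.886 and 1.13. Differences between groups are given on the log2(FPKM + 1) scale, which understates the change where FPKM is low. Genes entered the test when 2 libraries or more reached an FPKM of 1, which 12003 genes and 7 of the 10 retinoid genes did. Rxra, Cyp26b1 and Stra6 stayed below this level. Rarb reached it only through the HSC libraries with RBCs. A call needed both an adjusted p under 0.05 and a 2-fold change or more. The first HSC library with RBCs had a higher sum of neutrophil markers than the second, 254 against 46.4 FPKM. Most of this sum was S100a8 (148 against 22.3 FPKM) and S100a9 (87.9 against 11.8 FPKM). Ltf, Retnlg, Mmp8, Mmp9 and Cxcr2, also on that list, were not higher in the first library. Values without the first library are given with the markers. In bulk samples, fewer cells of a type and less RNA per cell cannot be told apart.

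**Figure D1:**
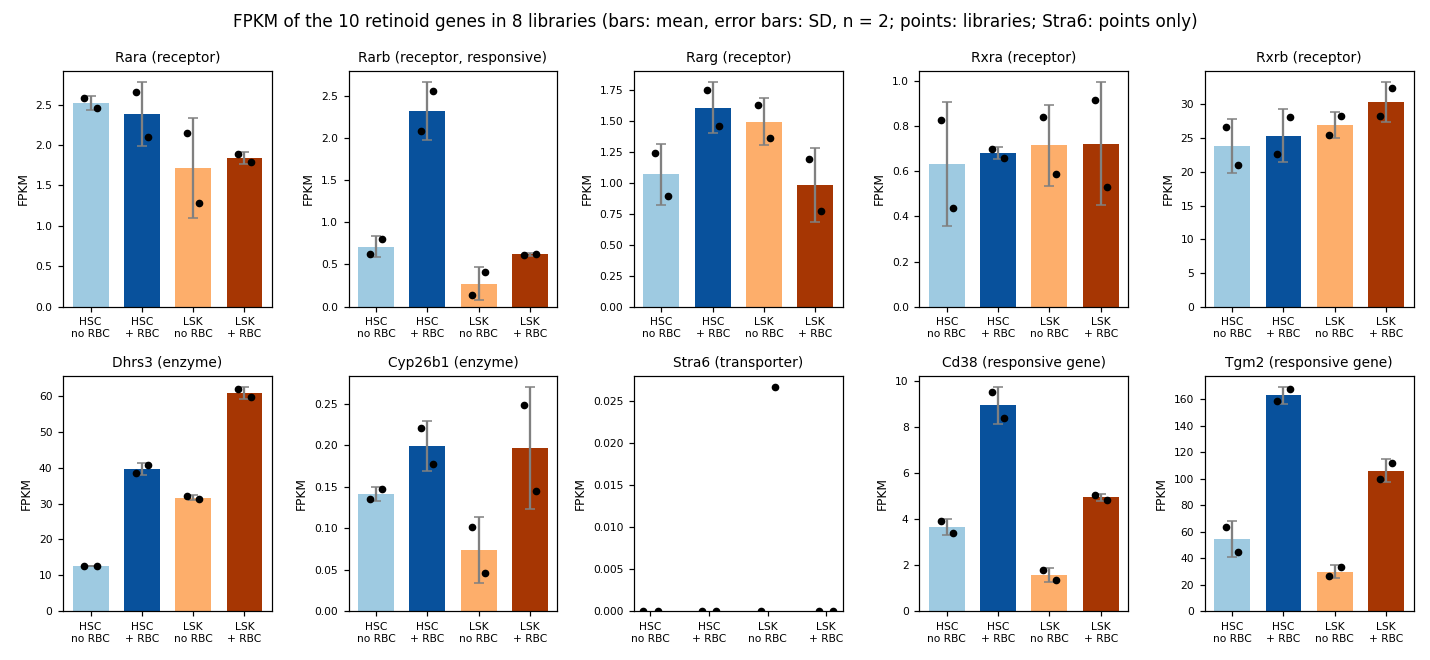
FPKM (linear axis, 1 panel per gene) of the 10 retinoid genes in HSCs and LSK cells without and with RBCs; bars are means, error bars SD (n = 2) and points the libraries, with points only for Stra6. Tgm2, Cd38 and Dhrs3 stood higher with RBCs in both cell types, Rarb reached 2.08 and 2.56 in HSCs with RBCs, and Rxrb was the receptor with the highest FPKM in every library.

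Among the receptors, Rxrb dominated the RXR side and the RARs stood far below it. Rxrb (chr17:34031812-34038399, plus strand), a general partner of nuclear receptors, measured 26.7 and 21.0 FPKM in HSCs kept alone, and 22.6 and 28.1 in HSCs kept with RBCs. The LSK libraries measured 25.5 and 28.2 FPKM of Rxrb in single culture, and 28.2 and 32.4 beside RBCs. The RBC groups overlapped with their controls in both cell types, and the log2 differences were 0.09 (SE 0.142) in HSCs and 0.17 in LSK cells. Rxra (chr2:27676440-27762957, plus strand), the other RXR, lay between 0.439 and 0.915 FPKM in all 8 libraries, on an estimated 24 to 55 reads. Its 4 groups overlapped one another.

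Rara (chr11:98927818-98974942, plus strand), the RAR whose fusion with PML drives promyelocytic leukemia, measured 2.58 and 2.46 FPKM in HSCs without RBCs and 2.66 and 2.105 with them. LSK cells held 2.15 and 1.28 FPKM of Rara without RBCs and 1.89 and 1.79 with them. The values with and without RBCs overlapped in both cell types, with log2 differences of -0.06 and 0.08 (SE 0.194), and the signs of both changed when single libraries were left out. Rarg (chr15:102234938-102257517, minus strand), a receptor with a known part in the upkeep of mouse HSCs, measured 1.25 and 0.898 FPKM in HSCs without RBCs and 1.75 and 1.46 with them. In LSK cells Rarg had the opposite order, 1.63 and 1.36 FPKM without RBCs and 1.19 and 0.775 with them. Neither pair of groups overlapped, and the log2 differences of 0.34 and -0.34 (SE 0.191) rested on an estimated 26 to 62 reads per library.

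Rarb (chr14:16430839-16819156, minus strand), the RAR whose own gene is a textbook target of retinoic acid, was the receptor with the largest difference with RBCs in HSCs. Its FPKM were 0.621 and 0.800 in HSCs without RBCs against 2.08 and 2.56 with RBCs. LSK libraries held 0.134 and 0.414 in single culture against 0.607 and 0.630 beside RBCs. The RBC libraries lay above their controls in both cell types, and the HSC libraries above the LSK libraries of the same culture, although the LSK libraries with RBCs reached no higher than the range of the HSC controls. The ratio of mean FPKM was 3.26 in HSCs and 2.25 in LSK cells, and the log2 differences were 0.95 (SE 0.192) and 0.35 (SE 0.192). The LSK difference was 0.19 without the first control library and 0.51 without the second. These values rest on few reads, an estimated 26 and 28 against 77 and 108 in HSCs, and 5 and 17 against 20 and 22 in LSK cells. With a pseudocount of 0.1 in place of 1 the log2 differences were 1.58 and 1.05. Of the 5265 exonic bases of Rarb, 1793 are shared with Top2b on the opposite strand, and the library kit keeps no strand, so reads there cannot be told apart. Top2b, a topoisomerase, lay between 38.9 and 45.6 FPKM in all libraries and had log2 differences with RBCs of -0.08 in HSCs (adjusted p = 0.80) and -0.11 in LSK cells (adjusted p = 0.56). Gm48162, also on the opposite strand, shares 227 exonic bases with Rarb. It had no value, so its part in the reads of Rarb was not tested.

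Dhrs3 (chr4:144892827-144928209, plus strand) turns retinal back into retinol, which holds down the supply of retinoic acid, and the gene is itself known to be induced by retinoic acid. It measured 12.6 FPKM in both HSC libraries without RBCs, against 38.4 and 40.8 with RBCs. In LSK cells its FPKM were 32.1 and 31.2 without RBCs and 62.0 and 59.6 with them. The 4 groups of Dhrs3 stood apart, in the order HSC without RBCs, LSK without RBCs, HSC with RBCs and LSK with RBCs, and replicates of a group differed far less than the groups. The means were 12.6 ± 0.0345 FPKM without and 39.6 ± 1.65 FPKM with RBCs in HSCs (SD, n = 2), a log2 difference of 1.58 (SE 0.0779). They were 31.6 ± 0.629 and 60.8 ± 1.71 FPKM in LSK cells, a log2 difference of 0.92. The difference between these changes was 0.66 (SE 0.110) on the log2 scale, larger in HSCs.

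The remaining retinoid-handling genes were near the limit of detection. Cyp26b1 (chr6:84571414-84593908, minus strand), which breaks down retinoic acid, measured 0.135 and 0.147 FPKM in HSCs without RBCs and 0.220 and 0.178 with them. LSK cells held 0.102 and 0.0456 FPKM of Cyp26b1 without RBCs and 0.249 and 0.144 with them. The RBC libraries lay above their controls in both cell types, on an estimated 3 to 12 reads in each library, where counting error alone is large. Stra6 (chr9:58063788-58153996, plus strand), the membrane receptor for retinol carried by its binding protein, was listed at 0 in 7 libraries and at 0.0267 FPKM, an estimated 1 read, in LSK_Ctrl_2. A count of 0 allows up to 3 reads, or 0.0789 to 0.101 FPKM depending on the library, and covers counting error only.

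Cd38 and Tgm2 stood higher with RBCs in both cell types. Cd38 (chr5:43868553-43912375, plus strand), a surface enzyme that uses NAD and makes cyclic ADP-ribose, is induced by retinoic acid in myeloid cells. It measured 3.91 and 3.41 FPKM in HSCs without RBCs against 9.51 and 8.38 with RBCs. In LSK cells Cd38 had 1.80 and 1.35 FPKM without RBCs against 5.06 and 4.83 with them. No groups of Cd38 overlapped, and the order was LSK without RBCs, HSC without RBCs, LSK with RBCs and HSC with RBCs. The log2 differences with RBCs were 1.09 (SE 0.155) in HSCs and 1.21 (SE 0.155) in LSK cells, 2.44 and 3.14 times in mean FPKM. In HSCs the difference was 1.02 without the second control library and 1.01 without the first library with RBCs, and Cd38 was then not called.

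Tgm2 (chr2:158116402-158146436, minus strand), the tissue transglutaminase that cross-links proteins, is strongly induced by retinoic acid in myeloid cells and had the highest mean level of the 10 genes over all libraries. Its FPKM were 63.7 and 44.55 in HSCs without RBCs against 158 and 167 with RBCs. LSK libraries held 26.2 and 33.3 in single culture against 99.7 and 112 beside RBCs. The groups followed the same order as for Cd38 and did not overlap. The means were 54.1 ± 13.6 and 163 ± 6.29 FPKM in HSCs and 29.8 ± 5.03 and 106 ± 8.80 FPKM in LSK cells (SD, n = 2), with log2 differences of 1.59 and 1.80 (SE 0.161). Rprd1b, on the opposite strand, shares 370 of the 4608 exonic bases of Tgm2. Its FPKM lay between 21.6 and 28.9, with log2 differences of 0.12 and 0.14 with RBCs (adjusted p = 0.64 and 0.42). Gm20412, also on the opposite strand, shares 633 exonic bases with Tgm2. It had no value, so its part in the reads of Tgm2 was not tested.

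Counted over the set, Cd38, Tgm2 and Dhrs3 were called higher with RBCs in HSCs, 3 of the 7 tested against 0.633% of all genes tested, and Cd38 and Tgm2 in LSK cells, 2 of 7 against 0.900%. Both of these were called in both cell types, as were 0.317% of all genes tested. The libraries with RBCs lay above both controls for 6 of the 10 genes in HSCs, against 19.9% of all genes tested, and for 5 in LSK cells, against 24.2%. They lay below both for 0 genes in HSCs, against 21.8%, and for 1 in LSK cells, Rarg, against 26.4%. The counts above and below controls include the untested Rxra, Cyp26b1 and Stra6, while the shares cover tested genes only. Cyp26b1 was among the genes above both controls in each cell type. Because the genes were chosen with this contrast known, nothing is read from these counts. The median log2 difference of the tested members was 0.95 in HSCs and 0.35 in LSK cells, beside -0.0062 and -0.0095 over all genes. Both medians are the values of Rarb itself, which passed the filter only through the HSC libraries with RBCs. They do not show a shift of the whole set, and nothing is read from them. The RBC comparisons in HSCs and in LSK cells share no library, but they share the estimate of the spread, and both were known when the genes were chosen. For Cd38, the difference between the HSC and LSK changes was -0.12 (SE 0.219) on the log2 scale and for Tgm2 -0.21 (SE 0.227), smaller than their errors. For Rarb it was 0.60 (SE 0.272).

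**Figure D2:**
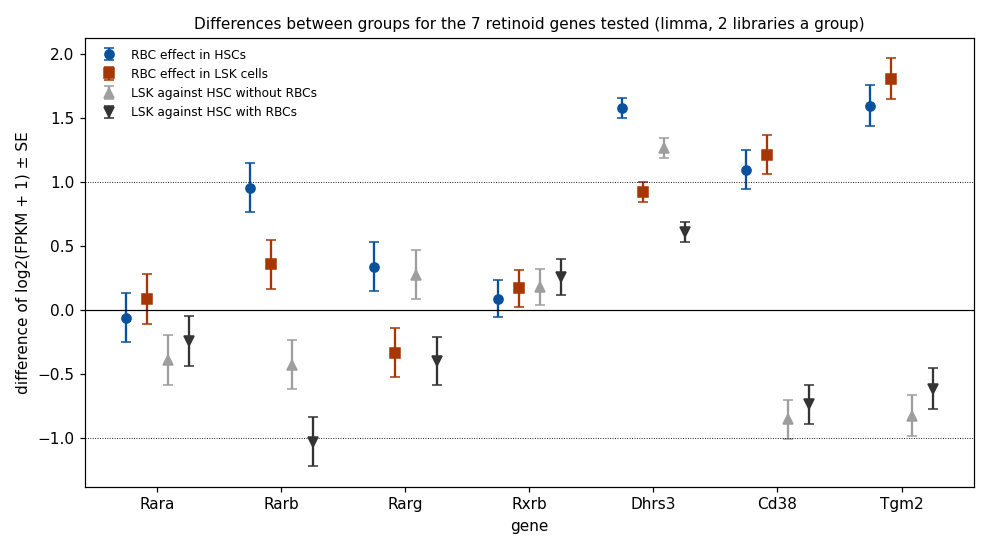
Differences of log2(FPKM + 1) with SE from limma for the 7 retinoid genes tested, for RBCs against none in each cell type and for LSK cells against HSCs in each culture; dotted lines mark a 2-fold change. Cd38 and Tgm2 lie above 1 for both RBC comparisons and below 0 for both cell type comparisons, while Dhrs3 lies above 0 in all 4.

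The genes are taken to have been chosen on their response to RBCs and not on the comparison of LSK cells with HSCs. Whether the comparison of the cell types was also known is not stated. All 8 libraries did, however, enter both kinds of comparison, so the choice may bear on the p-values given here for both cultures. Cd38 and Tgm2 stood lower in LSK cells than in HSCs, and Dhrs3 stood higher. Without RBCs, Dhrs3 was 2.51 times higher in LSK cells than in HSCs, a log2 difference of 1.26 (SE 0.0779, adjusted p = 2.0e-05). It was the only one of the 7 called, against 2.66% of all genes tested in either direction. Cd38 was lower in LSK cells by a log2 difference of -0.86 (SE 0.155, adjusted p = 0.0071), and Tgm2 by -0.83 (SE 0.161, adjusted p = 0.0095), both under 2-fold on the log2(FPKM + 1) scale. The ratio of mean FPKM in LSK cells to HSCs was 0.431 for Cd38 and 0.550 for Tgm2, and Cd38 was called with a pseudocount of 0.1 or 0.5. At any fold, 3 of the 7 thus passed the adjusted p, against 14.2% of all genes. Without the first LSK library in single culture the adjusted p of Tgm2 was 0.063, and with no filter on low values it was 0.054. Without the second HSC control library, Tgm2 was at -1.08 and called. The RARs and Rxrb did not pass, with log2 differences of -0.39 for Rara (adjusted p = 0.22), -0.43 for Rarb (adjusted p = 0.18), 0.27 for Rarg (adjusted p = 0.39) and 0.17 for Rxrb (adjusted p = 0.47).

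With RBCs, the same order held for Cd38, Tgm2 and Dhrs3. Dhrs3 was higher in LSK cells by 0.61 on the log2 scale (adjusted p = 8.9e-04), while Cd38 differed by -0.74 (adjusted p = 0.0086) and Tgm2 by -0.62 (adjusted p = 0.022), all under 2-fold. Rarb was lower in LSK cells, with a log2 difference of -1.03 (SE 0.192). This is a description without a p-value, because Rarb passed the filter only through the HSC libraries with RBCs, where it stood highest. Without the second of them the difference was -0.93. Of the other 6 genes tested, 3 passed the adjusted p at any fold, against 24.4% of all genes. Rara at -0.25 (adjusted p = 0.39), Rarg at -0.40 (adjusted p = 0.16) and Rxrb at 0.25 (adjusted p = 0.23) did not pass.

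Other genes of retinoid biology were taken from 7 lists with 101 different genes, of which 60 were tested. The lists leave out the members and, like them, were chosen with earlier results of these data known. Nothing is therefore read from the list counts with RBCs, and the p-values of list genes for RBCs carry the same limit. By limma, none of the 60 was called with RBCs in either cell type, against 0.775% and 1.01% of all genes in either direction, and 11 in HSCs and 14 in LSK cells had an unadjusted p under 0.05, where 13.7% and 18.6% of all genes did. At any fold 1 of the 60 passed the adjusted p in HSCs, against 2.53% of all genes, and 6 did so in LSK cells, against 3.45%. The log2 differences of the list genes ran from -0.78 to 1.54 in HSCs and from -0.86 to 0.95 in LSK cells, and 32 of 60 were above 0 in each. The difference between the RBC effects of the cell types was called for none of the 60, against 0.108% of all genes, and 11 had an unadjusted p under 0.05, where 12.5% of all genes did.

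**Figure D3:**
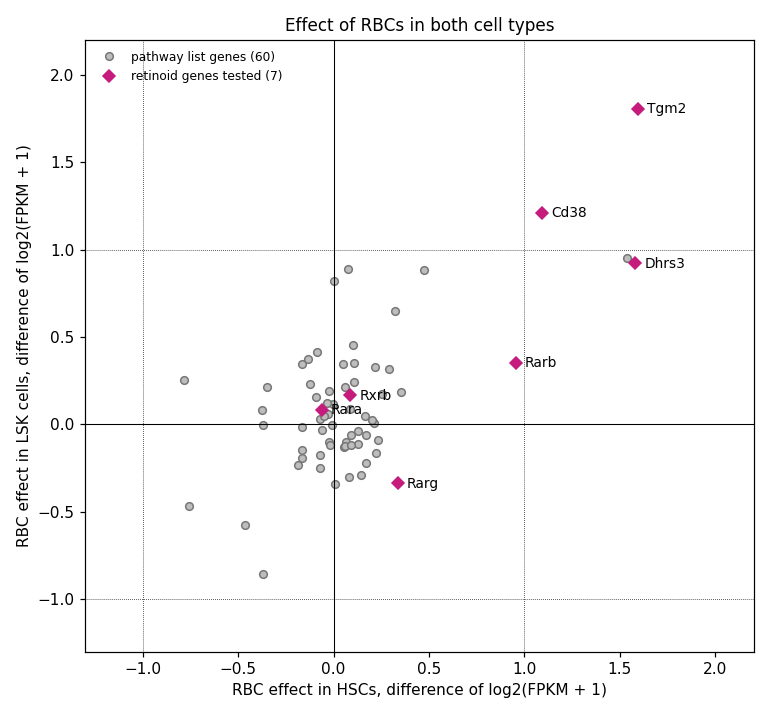
Difference of log2(FPKM + 1) with RBCs in HSCs (x axis) and in LSK cells (y axis) for the 60 list genes tested (grey circles) and the 7 retinoid genes tested (diamonds, named). Dotted lines mark a 2-fold change; Cd38 and Tgm2 lie beyond both, and the grey circle beside Dhrs3 is Hic1, at 1.54 and 0.95.

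Among the 12 genes of retinoid uptake, storage and binding, 4 were tested, with median log2 differences of -0.24 in HSCs and 0.01 in LSK cells. Fabp5, which carries retinoic acid and fatty acids, fell with RBCs in HSCs, where 166 and 191 FPKM stood against 130 and 128, and in LSK cells, where 149 and 140 FPKM stood against 106 and 88.6. Its log2 differences were -0.46 (SE 0.0962, adjusted p = 0.040) and -0.57 (adjusted p = 0.015), under 2-fold. Dgat1, which can esterify retinol, lay between 11.97 and 15.6 FPKM throughout. Lpl, a lipase of the uptake of retinyl esters, stood lower in LSK cells without RBCs, at 0.515 and 0.516 FPKM against 2.55 and 2.38 (log2 difference -1.19). That is a description without a p-value, because Lpl passed the filter only through HSC libraries.

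Of the 20 genes of retinoic acid synthesis and breakdown, 12 were tested, with medians of -0.11 and 0.03. Aldh1a1, which makes retinoic acid from retinal, was called lower in LSK cells without RBCs, at 12.3 and 12.4 FPKM against 24.3 and 28.9 in HSCs (log2 difference -1.04, adjusted p = 0.0058). Without the second HSC control library it was at -0.93 and not called. The enzymes with the highest levels were Adh5, Dhrs4 and Dhrs7, with group means of 157 to 174, 35.0 to 50.9 and 30.0 to 40.4 FPKM. In LSK cells Dhrs7 rose with RBCs from 30.0 and 30.1 to 41.7 and 39.1 FPKM (log2 difference 0.42, adjusted p = 0.046) and Rdh14, a retinal reductase, from 25.9 and 28.5 to 41.6 and 34.1 FPKM (log2 difference 0.46, adjusted p = 0.046).

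All 15 coregulators were tested, with medians of -0.0024 and 0.03. Hdac3, Prmt1 and Ncor1 had the highest levels, with group means of 85.9 to 95.7, 53.1 to 59.9 and 34.8 to 41.5 FPKM. The corepressor Nrip1, itself induced by retinoic acid, rose with RBCs in LSK cells from 29.8 and 34.8 to 49.97 and 52.0 FPKM (log2 difference 0.65, adjusted p = 0.016). Of 14 genes for Rxrg and the receptors that can pair with RXR, 7 were tested, with medians of 0.08 and -0.10. Nr1h2, Vdr and Thra stood highest, with group means of 43.6 to 49.0, 7.63 to 14.6 and 3.66 to 6.01 FPKM. Nr1h4, the bile acid receptor, stood higher in LSK cells with RBCs, at 3.36 and 3.86 FPKM against 1.08 and 0.686 in HSCs (log2 difference 1.30). That difference is given without a p-value, because Nr1h4 needed the LSK libraries to pass the filter. It also rose with RBCs in LSK cells, from 1.51 and 1.71 FPKM (log2 difference 0.82, adjusted p = 0.045).

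The list of other retinoic acid responsive genes held 22, of which 11 were tested, with medians of 0.17 and 0.23 and 8 of 11 above 0 in each cell type; 1 of them passed the adjusted p in LSK cells, Nrip1, and none in HSCs. Hic1, a repressor chosen here after its values were seen, measured 0.134 and 0.436 FPKM in HSCs without RBCs and 3.97 and 1.76 with them. Its LSK values were 2.99 and 1.08 without RBCs and 3.83 and 5.45 with them. Within each cell type the values with and without RBCs did not overlap, but the replicates of each group lay far apart, and the log2 differences of 1.54 (SE 0.355, adjusted p = 0.063) and 0.95 (adjusted p = 0.19) did not pass. Meis1 and Cebpb had the highest levels on this list, beside Nrip1, with group means of 94.7 to 124 and 41.1 to 55.0 FPKM.

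Between the cell types, the same list had Ccr9, a homing receptor of lymphoid cells, higher in LSK cells. Without RBCs it stood at 3.01 and 2.63 FPKM in LSK cells and 0.0986 and 0 in HSCs (log2 difference 1.87). With RBCs its log2 difference was 1.48. Rarres2, which encodes chemerin, stood higher in LSK cells with RBCs (log2 difference 1.004), at 1.39 and 2.46 against 0.616 and 0.272 FPKM. Its log2 difference ranged from 0.74 to 1.27 when single libraries were left out. It lost its call with no filter and under 2 of the other scalings. Both genes are described without p-values, because both passed the filter only through LSK libraries.

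In the setting of Cd38, 10 of the 15 genes of NAD and cyclic ADP-ribose metabolism were tested, with medians of 0.03 and -0.06. Bst1, the neighbour of Cd38 at a distance of 24567 bases and its relative in making cyclic ADP-ribose, did not exceed 0.267 FPKM in any library. Naprt, which makes NAD from nicotinic acid, fell with RBCs in LSK cells from 11.3 and 10.1 to 5.68 and 5.21 FPKM (log2 difference -0.86, adjusted p = 0.0091), under 2-fold. It was called lower in LSK cells than in HSCs with RBCs (log2 difference -1.45, adjusted p = 1.3e-04), where the HSC values were 18.3 and 15.0 FPKM. Parp1, Nadk and Nmnat3, a user and makers of NAD and NADP, had the highest levels of the list. In the setting of Tgm2, 7 of 8 family members had a value and 3 were tested, Tgm1, Tgm4 and F13a1, with medians of -0.07 and -0.19. The group means of Tgm1 and Tgm4 did not exceed 6.88 and 1.76 FPKM. F13a1 stood higher in LSK cells than in HSCs with RBCs, at 2.83 and 5.41 against 0.146 and 1.32 FPKM (log2 difference 1.60). That difference ranged from 1.10 to 2.11 when single libraries were left out, and its call was lost with no filter. It is given without a p-value, because F13a1 needed the LSK libraries to pass the filter. Over the 7 lists, 3 of 60 genes were called between the cell types without RBCs and 5 of 60 with RBCs, against 2.66% and 3.61% of all genes. Among them, Ccr9, Lpl, Rarres2, Nr1h4 and F13a1 needed the cell type where they stood higher to pass the filter, so nothing is read from these counts.

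Some genes followed Cd38 and Tgm2 closely across the 8 libraries, which share the 4 groups. By Pearson's r of log2(FPKM + 1), given as a description, the nearest to Cd38 were Tmem176b (0.992), Egr2 (0.990), Ier2 (0.985), Tmem176a (0.984) and Pycard (0.975). Egr2 passed the filter only through the HSC libraries with RBCs, where it stood highest, at 1.77 and 1.49 FPKM. The nearest to Tgm2 were Camkk1 (0.990), Asb4 (0.986), Adgrl4 (0.977), Syngr1 (0.975) and Bhlhe40 (0.973). Between Cd38 and Tgm2 r was 0.955, and Rarb had an r of 0.869 with Cd38 and 0.825 with Tgm2. Dhrs3, with its higher level in LSK cells, had 0.299 with Cd38 and 0.470 with Tgm2.

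Markers of the sorted cells and of other cells were read beside these results. All 10 markers of stem and progenitor cells were present, with a summed level of 1087 to 1482 FPKM. Cd48, which the HSC gate excludes, measured 42.7 and 40.5 FPKM in HSCs without RBCs and 16.0 and 22.8 with them, against 124 to 184 in LSK cells. The gate also selects for Slamf1 (CD150), Kit (c-Kit) and Ly6a (Sca-1). Slamf1 was lower in HSCs with RBCs, at 5.50 and 6.59 FPKM against 10.2 and 10.7 without them. Kit was lower too, at 97.6 and 90.8 against 126 and 118, while Ly6a was higher, at 719 and 544 against 388 and 444. Of these gate markers only Cd48 was called with RBCs in HSCs. Neutrophil markers (10 of 10 with a value) moved with RBCs: their sum was 8.54 to 10.6 FPKM in HSCs without RBCs, 46.4 to 254 with them, 129 to 221 in LSK cells without RBCs and 365 to 572 with them. Without the first HSC library with RBCs, which held the 254, the log2 differences in HSCs were 1.01 for Cd38, 1.63 for Tgm2, 1.62 for Dhrs3 and 1.06 for Rarb. The monocyte and macrophage markers (9 of 9 with a value) summed to 90.1 to 112 and 105 to 111 FPKM in HSCs without and with RBCs, and 60.6 to 74.9 and 117 to 119 in LSK cells. C1qa was listed at 0 in all libraries, and Csf1r, the receptor of macrophage colony-stimulating factor, measured 2.53 and 2.81 FPKM in HSCs without RBCs, and 7.07 and 9.37 with them. In LSK cells it measured 14.1 and 22.8 FPKM alone and 47.2 and 54.3 beside RBCs. No other marker of this list was called with RBCs. Cd68, which made up most of the HSC sum, measured 85.9 and 107 FPKM in HSCs without RBCs and 96.3 and 98.9 with them. In LSK cells Cd68 measured 43.8 and 48.6 FPKM alone and 68.1 and 58.5 beside RBCs. Fcgr1, near the floor, was lower with RBCs in both cell types, at 0.341 and 0.173 against 0.0640 and 0.0283 FPKM in HSCs. The red blood cell markers (8 of 9 with a value) summed to 282 to 338 FPKM in HSCs without RBCs and 299 to 308 with them, and 111 to 177 and 119 to 184 in LSK cells. These sums hide members that moved in opposite ways. Hba-a1, an alpha globin, was called higher with RBCs in both cell types, at 0.0826 and 1.40 FPKM against 116 and 88.7 in HSCs and at 0.864 and 1.53 against 32.9 and 43.1 in LSK cells. Hbb-b1, a beta globin, and Alas2, an enzyme of heme synthesis, were called higher with RBCs in HSCs. Hbb-b2, which made up most of the sum without RBCs, measured 279 and 335 FPKM in HSCs without RBCs against 120 and 158 with them and was not called. Globin genes have near-identical copies between which reads may be split, so the single values are uncertain. Platelet markers summed to 79.0 to 223 FPKM and were lowest in LSK cells with RBCs, B cell markers to 34.8 to 51.7 FPKM with Pax5 at 0 in 3 groups, and T or NK cell markers to 0.799 to 2.60 FPKM. The part of the neutrophil, monocyte and red blood cell genes in the values of the retinoid genes was not tested.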

How the data were processed

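RNA was sequenced from 8 bulk libraries of HSCs and LSK cells, 2 in each of 4 groups taken from the sample labels. The authors made full-length cDNA libraries (SMART-Seq HT, Nextera XT) and deposited FPKM values per gene symbol, normalized for transcript length and library size. The submitters' processing notes name TopHat2 2.1.1, Bowtie2 2.2.8, SAMtools 0.1.18, Cuffdiff 2.2.1 and the build mm10; the annotation is not given in the sources used here. Multi-mapped and overlapping reads may have been split by the quantification.

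From the deposited FPKM, log2(FPKM + 1) was computed for the 12003 genes that reached an FPKM of 1 in 2 libraries or more. The 4 group means were fitted jointly by limma 3.58.1 (R 4.3.3) with a mean-variance trend and no replicate block, on 4 residual and 5.18 prior degrees of freedom. The 5 contrasts were RBCs against none in each cell type, the difference of these, and LSK cells against HSCs in each culture. p-values were adjusted by Benjamini and Hochberg over all genes tested. The script was tested on simulated data. Alternatives covered the pseudocount, the filter, the scaling, the trend, a replicate block, fits of the compared groups only and the omission of each library.

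Absolute depth is not given. For low genes, 2821 of 3659 (77.1%) had FPKM that were whole multiples of a step per gene within a tolerance of 0.03 once relative depth was fixed. Reads per gene were estimated from the median step and the longest transcript, so they are approximate and cover counting error only.

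The genes and lists were chosen with earlier results of these data known. Named genes are the 10 members, from each of the 7 lists every gene called in any contrast and the 3 with the highest mean FPKM, and the 5 tested genes with the highest r with Cd38 and with Tgm2. Other list genes are named where they passed the adjusted p for RBCs. The exceptions are Hic1, chosen after its values were seen, and Bst1, the neighbour of Cd38. A gene that the rule names is not reported here. Positions came from GENCODE M21 (GRCm38) and promoters from RefSeq (GRCm38.p6). Protein sequences of the receptors were not analysed here.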

Additional observations from a re-analysis of the deposited data

Results flagged for a closer look

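A result was singled out where the difference between its RBC effects was called. It was also singled out where the RBC groups did not overlap their controls, in opposite directions in the 2 cell types. Among all genes tested, 19.9% lay above both controls in HSCs and 26.4% below both in LSK cells. The share with both was not counted. Rarg was the only result singled out, by the second criterion, and nothing is read from this. The difference between its RBC effects in HSCs and in LSK cells was 0.67 on the log2 scale (SE 0.271), since both HSC libraries with RBCs lay above both HSC controls and both LSK libraries with RBCs lay below both LSK controls. The difference was not tested, because Rarg was chosen with the RBC response known. It ranged from 0.52 to 0.83 when single libraries were left out. Dhrs3 had a difference of 0.66 with a smaller error (SE 0.110), but rose in both cell types. Groups of 2 libraries are too small to look for a library that stands apart.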

How the results depend on the processing

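No called result of those tabulated changed sign under the alternatives run. Without the filter, calls with RBCs went from 93 to 50 in HSCs and from 121 to 70 in LSK cells, and calls for the difference between these effects from 13 to 2; the last count was 20 after quantile normalization, 1 without the trend and 8 with a replicate block. A pseudocount of 0.1 raised the calls between cell types without RBCs from 319 to 485, and a filter at an FPKM of 5 lowered those with RBCs from 433 to 286. Leaving out single libraries gave 66 to 95, 64 to 119, 316 to 327, 406 to 452 and 7 to 14 calls for the 5 contrasts. The lone library of a group was then assumed to vary like the other groups. The cause was not tested.

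Of the retinoid genes, the number called between cell types without RBCs went from 1 to 2 with a pseudocount of 0.1 or 0.5, which added Cd38, and was 1 to 2 without single libraries, Tgm2 being added without the second HSC control. With RBCs the count, made by Rarb alone and not read as a test, went from 1 to 0 at a filter of FPKM 5, which left Rarb untested, and was 0 to 1 without single libraries. With RBCs against none, 2 to 3 were called in HSCs and 2 in LSK cells without single libraries, the call of Cd38 in HSCs being lost without the second control or the first RBC library.

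The deviations of libraries of the same number were close to uncorrelated between groups (correlations from -0.0670 to 0.0954). Correlations over all genes tested cannot show whether libraries of the same number were paired, and the labels do not say. With the replicate block 93, 106, 320 and 435 genes were called in the first 4 contrasts, and the calls of the retinoid genes stayed as they were.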
